A study of Mus musculus with 6 samples.

Results

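The mitochondrial ribosomal protein genes were followed in retina plus retinal pigment epithelium (RPE) of 5XFAD mice, which carry human transgenes and are used to model Alzheimer's disease. Members were chosen by symbol alone, as genes named Mrpl or Mrps followed by a number, and 78 of the 19401 genes listed in at least 1 library met this rule. RNA was measured in 6 libraries, 3 from control and 3 from efavirenz (EFV)-treated 5XFAD mice, each made from a pool of tissue of 5 to 6 mice at 9 months of age. EFV, an anti-HIV drug, was given in drinking water at 0.08 mg/kg body weight by the labels from month 3 to month 9, and the study's methods give a slightly higher dose. Both groups carried the transgenes of the 5XFAD line in hemizygous form on a B6SJL background, were described as male and as free of the rd1 and rd8 retinal degeneration alleles, and control mice drank water with the Tween 80 vehicle. The comparison asks how EFV changed gene expression in the retina of this model, and no wild-type mice are among these libraries. The transgenes are driven by a neuronal promoter, so the animals model amyloid production by neurons. The pools were the replicates, so p-values measure the spread between pools of mice, not between single animals.

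Mitochondria carry their own ribosome, which makes the few proteins encoded by mitochondrial DNA, all of them core subunits of the respiratory chain and of ATP synthase. Its RNAs come from the mitochondrial genome, whereas its proteins are encoded in the nucleus, made in the cytosol and imported. The large subunit joins amino acids and the small subunit reads the messenger RNA, and many of the proteins of both have a counterpart in bacterial ribosomes while others are specific to mitochondria. Photoreceptors pack their inner segments with mitochondria and have one of the highest energy demands of any cell.

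Library totals were 23455167 to 24590278 counts, and each member had 106 to 2390 counts in each library. The tissue was rich in rods, since Sag, the arrestin gene of rods, averaged 3293 FPKM in control and 3271 FPKM in EFV-treated pools. FPKM is the number of fragments scaled to the length of the transcript and the size of the library, a level per length that can be compared between genes. The pools differed in adhering tissue. Lens markers summed to 834 FPKM in control pool 3 and to 8.95 to 34.7 FPKM in the others, and 7 of the 7 lens markers tested were lower in EFV-treated pools at the nominal threshold given below. RPE markers summed to 29.2 FPKM in control pool 2 and to 51.0 to 65.2 FPKM elsewhere, and 2 of 8, Rpe65 and Lrat of the visual cycle, were higher at that threshold. None of the 8 rod, 6 cone, 6 Müller glia, 5 microglia and 6 endothelium markers tested passed it. The part of these differences in the member values was not tested beyond leaving out each pool in turn. In bulk tissue a smaller number of cells of a type and less RNA per cell cannot be told apart.

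All 78 members were expressed, at levels spread over 19.6-fold. Mean FPKM over the 6 libraries ran from 3.67 for Mrpl19 to 71.8 for Mrps21, with a median of 17.2 and quartiles of 12.7 and 26.4. Between 10 and 40 FPKM lay 61 members, and 69 were above 8.55 FPKM, the median of the tested genes with an Entrez identifier. The lowest member stood at the 30.6th percentile of those genes and the highest at the 94.9th. Transcripts of the members were short, with a median length of 1074 bases against 3119 bases for the genes tested. The genes lay on 17 chromosomes, with 11 on chromosome 11 and 8 on chromosome 17.

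**Figure D1:**
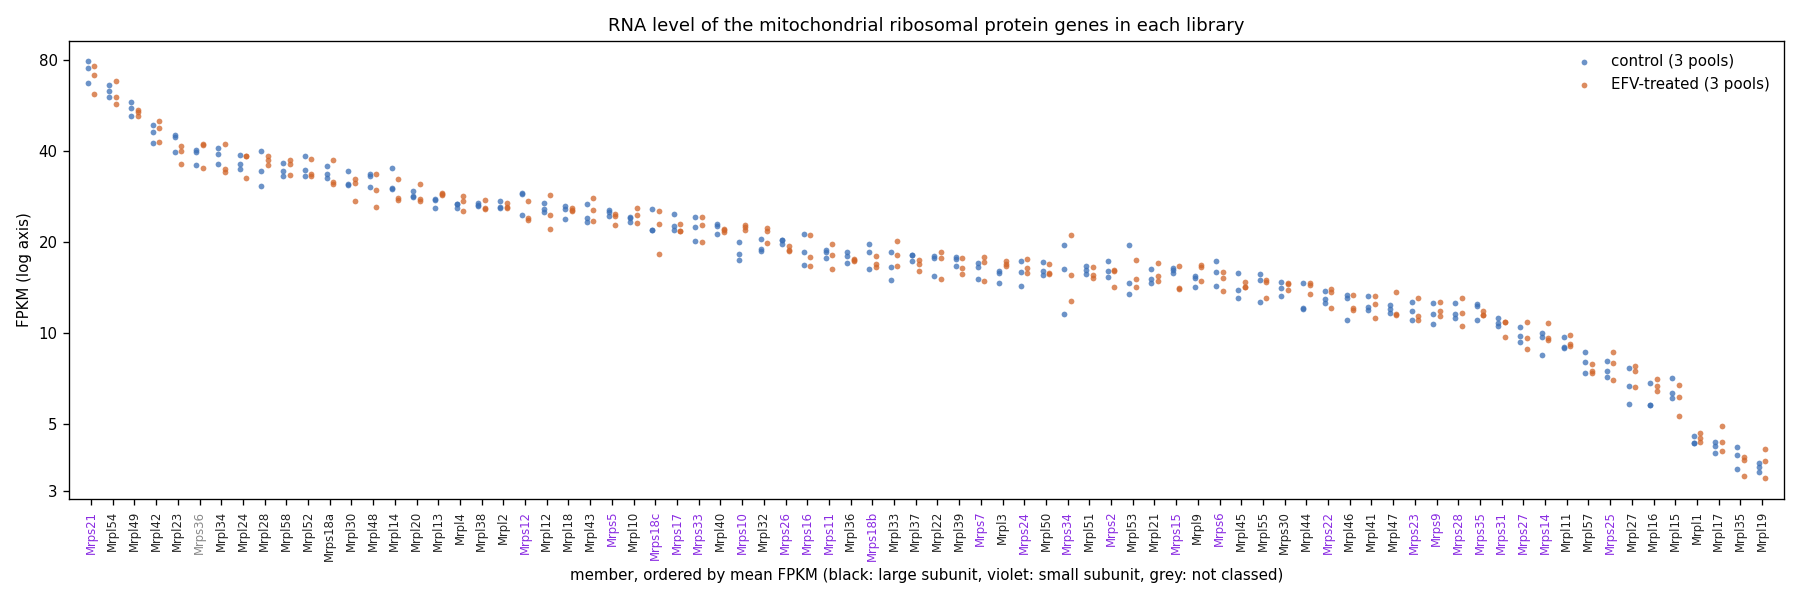
FPKM (log axis) of each of the 78 members, ordered by mean level, with 1 point per pool (blue, 3 control pools; orange, 3 EFV-treated pools) and the gene names coloured by subunit. Levels fall from 71.8 FPKM for Mrps21 to 3.67 FPKM for Mrpl19, and the control and EFV-treated points overlap for all but 4 members.

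Mrps21, a small subunit protein with a bacterial counterpart, was listed at 79.2, 75.1 and 67.0 FPKM in the control pools and 62.0, 71.2 and 76.2 FPKM in the EFV-treated pools. Mrpl54, a large subunit protein specific to mitochondria, had 66.1, 63.0 and 60.4 FPKM in control and 60.3, 57.4 and 68.2 FPKM in EFV-treated pools. In both genes the groups overlapped. The ranges of the 2 genes overlapped too, but Mrps21 was above Mrpl54 in every library. Mrpl49 followed with 58.4, 52.2 and 55.5 FPKM in control and 54.6, 53.8 and 52.4 FPKM in EFV-treated pools, and Mrpl42 with 46.5, 48.7 and 42.4 against 42.9, 47.7 and 50.5 FPKM. Mrpl49 and Mrpl42 are both large subunit proteins, and neither gene separated the groups.

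At the low end, Mrpl1, which forms the mobile stalk at the tRNA exit of the large subunit, had 4.33, 4.33 and 4.59 FPKM in control and 4.69, 4.37 and 4.49 FPKM in EFV-treated pools. Mrpl17 had 4.36, 4.03 and 4.25 FPKM against 4.38, 4.09 and 4.92 FPKM. These neighbours in the order overlapped each other and so did their groups. Mrpl35 had 3.95, 4.21 and 3.57 FPKM in control and 3.80, 3.89 and 3.37 FPKM in EFV-treated pools, and Mrpl19 had 3.72, 3.60 and 3.48 FPKM against 4.13, 3.31 and 3.79 FPKM. All 4 encode large subunit proteins. The levels of Mrpl35 and Mrpl19 overlapped, and which of them was higher differed between libraries.

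Levels varied little in size from pool to pool, though more than those of tested genes in the same FPKM range. The ratio of the highest to the lowest of the 6 libraries had a median of 1.197, was under 1.3 for 71 of 78 members, and ran from 1.05 for Mrpl2 to 1.83 for Mrps34. The within-group SD of log2 counts scaled to library size had a median of 0.0966 over the members and 0.0748 over the 9250 tested genes of the same level range. Those genes were matched by FPKM and not by counts. Member transcripts are shorter, which gives fewer counts at the same FPKM, and the part of this in the SD was not tested. Mrps34, a small subunit protein specific to mitochondria, varied most, with 11.6, 16.3 and 19.6 FPKM in control and 15.6, 12.8 and 21.1 FPKM in EFV-treated pools. Annotated exons of Mrps34 overlap those of Nme3 on the same strand. Nme3 had 612, 381 and 436 counts in control and 481, 472 and 413 in EFV-treated pools. Mrps34 had 239, 322 and 401 counts in control and 321, 261 and 428 in EFV-treated pools. The authors' program, RSEM, divides shared reads by estimation, and the part of this in the spread of Mrps34 was not tested. Fractional counts, the sign of reads shared with other genes, occurred in 22 members, and exons of 23 overlap those of another protein-coding gene.

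Some features of the gene starts were more frequent among members than among all tested genes, though most members lacked each of them, and no test of enrichment was run. Within 1000 bases, 33 of 78 members (42.3%) had the start of another protein-coding gene on the opposite strand, against 2106 of 14214 tested protein-coding genes (14.8%). The distance had a median of 128 bases and was shortest for Mrpl54, 26 bases from Apba3. Mrps11 of the small and Mrpl46 of the large subunit are each other's partner. Mrps12, which shapes decoding accuracy, starts 172 bases from Sars2, the mitochondrial seryl-tRNA synthetase, which had 9.98, 9.31 and 10.4 FPKM in control and 9.95, 9.77 and 10.3 FPKM in EFV-treated pools.

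Promoter windows of 300 bases, 250 before and 50 after a start, were found in the RefSeq table (GRCm38.p6) for 69 members, 75 windows in all, and were set beside 14671 windows of 11433 tested protein-coding genes. Letters were searched on both strands. CCGGAAG, read by transcription factors of the ETS family such as GABP, a regulator of nuclear genes for mitochondria, occurred in 26 windows (34.7%) against 15.4% of all windows. In the 60 bases just before the start it occurred in 17.3% of member windows and 6.21% of all. The NRF1 letters occurred in 3 member windows (4.0% against 1.84%) and the YY1 letters in 5 (6.67% against 1.73%). Shares of GGGCGG (Sp family, 52.0% against 60.2%), CCAAT (30 of 75 windows against 37.5%) and TATAAA (6.67% against 7.5%) are given for comparison, and median GC content was 58.7% against 60.3%. The motifs were searched separately and may overlap. A match is a description of the letters and not a binding site.

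To show where the ETS letters lie, stretches of 60 bases that end at the base before the RefSeq gene start are printed. They are from 3 members with the letters and from Mrpl42, an abundant member without them in the 250 bases before its start. Capitals mark CCGGAAG or its reverse complement, and each stretch is read 5′ to 3′ on the strand of its gene. They lie at chr8:71464866-71464925 on the plus strand for Mrpl34, chr14:54426849-54426908 on the plus strand for Mrpl52, chr9:98601680-98601739 on the minus strand for Mrps22 and chr10:95501950-95502009 on the minus strand for Mrpl42.
Mrpl34: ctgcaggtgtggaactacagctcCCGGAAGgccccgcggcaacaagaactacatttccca
Mrpl52: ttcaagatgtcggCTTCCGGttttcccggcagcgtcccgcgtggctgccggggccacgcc
Mrps22: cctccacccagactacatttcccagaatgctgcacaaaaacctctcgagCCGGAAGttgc
Mrpl42: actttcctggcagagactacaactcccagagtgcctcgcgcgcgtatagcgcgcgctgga

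The letters begin 37 bases before the start of Mrpl34, 47 before that of Mrpl52 and 11 before that of Mrps22. Mean levels were 37.97 FPKM for Mrpl34, 35.2 FPKM for Mrpl52, 13.2 FPKM for Mrps22 and 46.4 FPKM for Mrpl42. Mrpl42 was picked for its abundance, so the order of these levels says nothing about the letters.

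**Figure D2:**
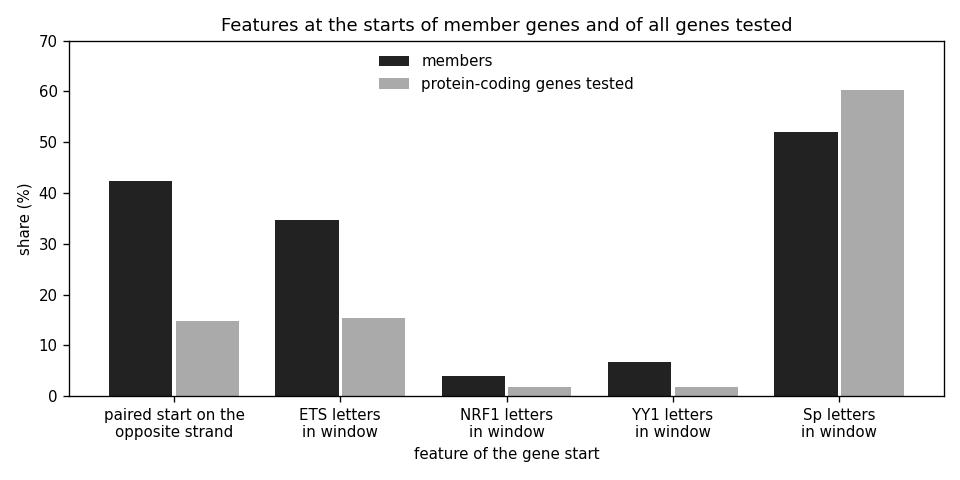
Share (%) of member genes or windows (black) and of tested protein-coding genes or their windows (grey) with each feature: a start on the opposite strand within 1000 bases, and the letters of the named factors in the 300-base window. The paired start (42.3% against 14.8%) and the ETS letters (34.7% against 15.4%) differ most between the black and the grey bars.

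EFV treatment left most member levels close to those of control pools. The log2 fold change, EFV-treated over control, had a median of -0.03 over the 78 members and ran from -0.16 to 0.23, with 60 members within 0.1 of no change. The standard error had a median of 0.0783. The 95% interval of the fold change lay within 1.3-fold in either direction for 73 members and within 1.5-fold for all 78, so larger changes lie outside the intervals of these genes. The nominal threshold, taken from the study's methods, was an unadjusted p of 0.05 or less with a change of at least 1.07-fold. In the quasi-likelihood test of edgeR 1 member passed it, Mrps10, against 467 of 15537 genes (3.01%). With Benjamini-Hochberg adjustment over all genes, 0 members and 0 genes (0.0%) passed an adjusted p of 0.05, 1 member had an unadjusted p of 0.05 or less (3.04% of all genes), and DESeq2 and limma also gave 0 members at an adjusted p of 0.05. A Poisson model, with no term for differences among pools, gave 4 members at that adjusted p, against 13.1% of all genes. At the nominal threshold limma on log2(FPKM + 0.1) called 2 members, Mrpl3 and Mrps10, against 3.15% of all genes. The share of members past the nominal threshold was 1.28% with all pools and depended on single pools. It was 8.97% (7 members, 6 of them lower) without EFV-treated pool 3, against 3.62% of all genes, 5.13% (4 members) without control pool 1, against 3.73%, and 3.85% (3 members) without control pool 2, against 2.52%.

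**Figure D3:**
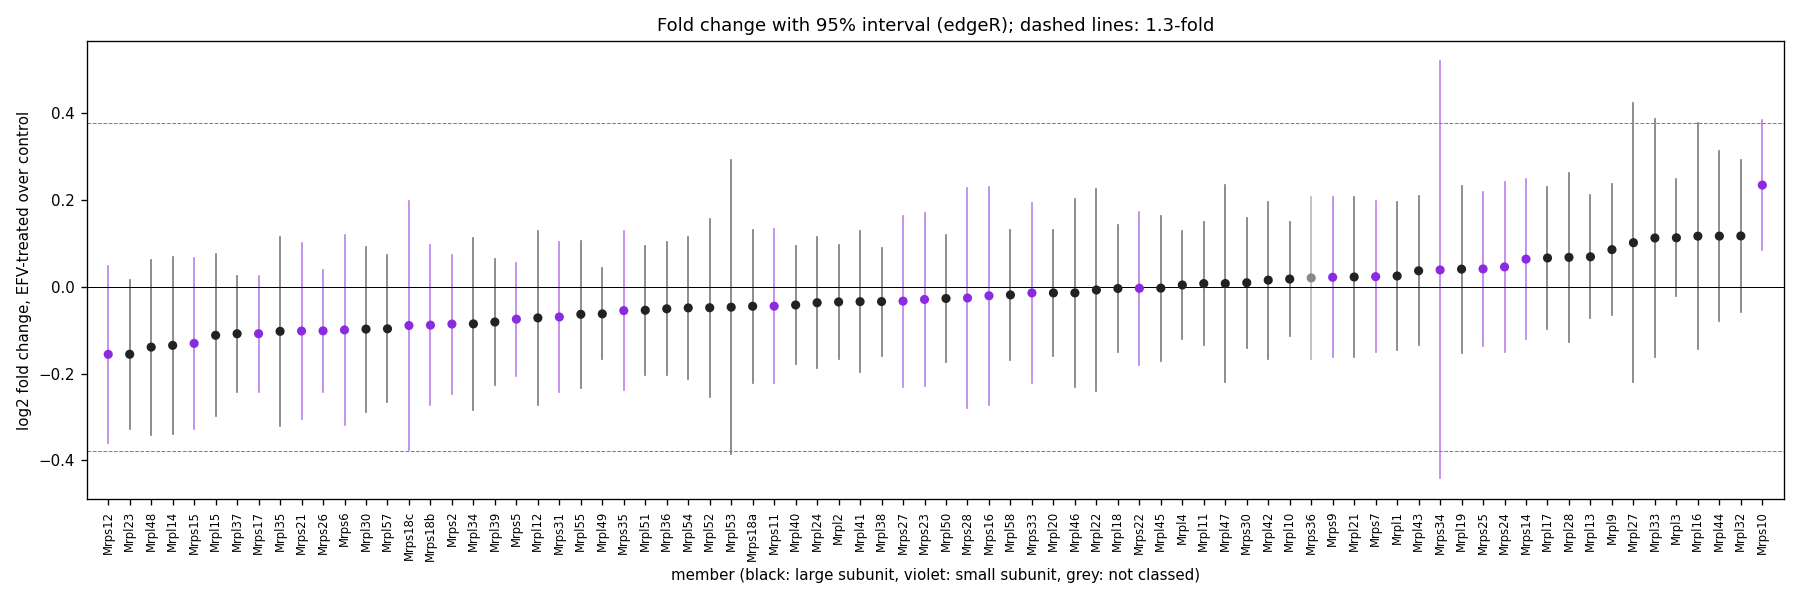
Log2 fold change, EFV-treated over control, of each of the 78 members in increasing order, with its 95% interval from edgeR (black, large subunit; violet, small subunit; grey, not classed; dashed lines, 1.3-fold). Mrps10, at the right end with 0.23, is the member whose interval lies above 0 as a whole, and the widest interval is that of Mrps34.

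Mrps10, a protein of the head of the small subunit with a bacterial counterpart, is at chr17:47368887-47381418. It had 20.1, 17.5 and 18.3 FPKM in the control pools and 22.7, 22.0 and 22.4 FPKM in the EFV-treated pools. Every EFV-treated pool was above every control pool. The means were 18.6 ± 1.31 and 22.4 ± 0.366 FPKM (SD, n = 3), a fold change of 1.18 (95% interval 1.06 to 1.31) and a log2 fold change of 0.23 (SE 0.07, edgeR unadjusted p = 0.00619, adjusted p = 0.999). Leaving out each pool in turn gave log2 fold changes of 0.20 to 0.28 with unadjusted p-values of edgeR from 0.005 to 0.0252. The gene is in the study's own list of changed genes, which was chosen on these libraries, so the call is not independent evidence. Its neighbour Guca1b, an activator of photoreceptor guanylate cyclase, had 500, 446 and 555 FPKM in control and 535, 571 and 571 FPKM in EFV-treated pools. It did not pass here (fold change 1.10, edgeR unadjusted p = 0.0772), although the study's list holds this gene too. The study's methods base their threshold on the Poisson distribution, whereas the edgeR test uses the spread between pools, so the 2 calls came from unlike tests.

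In the 250 bases before the start in the RefSeq window of Mrps10, the search found none of the ETS, NRF1 and YY1 letters. The one match there was to the reverse complement of CCAAT, in capitals here, at chr17:47369104-47369133 on the plus strand. The RefSeq gene model begins upstream of this window's start, so the stretch lies inside the annotated gene.
Mrps10: gaccctacataaATTGGcaagacgggagcg

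In 4 members (5.13%) the FPKM of the groups did not overlap, against 1192 of 15537 genes (7.67%). They were Mrps10, Mrpl3 and Mrpl13, higher in EFV-treated pools as were 4.99% of all genes, and Mrps26, lower as were 2.68%, and Mrpl13 and Mrps26 are described because their values were seen to lie apart. Mrpl3, whose product reaches towards the peptidyl transferase centre, had 16.1, 14.7 and 15.8 FPKM in control and 17.3, 16.7 and 16.97 FPKM in EFV-treated pools, a log2 fold change of 0.11 (SE 0.06, edgeR unadjusted p = 0.0907). Mrpl13, a large subunit protein, had 27.8, 27.6 and 25.9 FPKM against 28.8, 29.1 and 28.6 FPKM (log2 fold change 0.07, SE 0.06). The lowest EFV-treated pool exceeded the highest control pool by under 1 FPKM in both. Mrps26, a mitochondria-specific small subunit protein, had 19.8, 20.4 and 20.3 FPKM in control and 19.5, 18.8 and 18.9 FPKM in EFV-treated pools (log2 fold change -0.10, SE 0.06), and did not pass the nominal threshold.

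**Figure D4:**
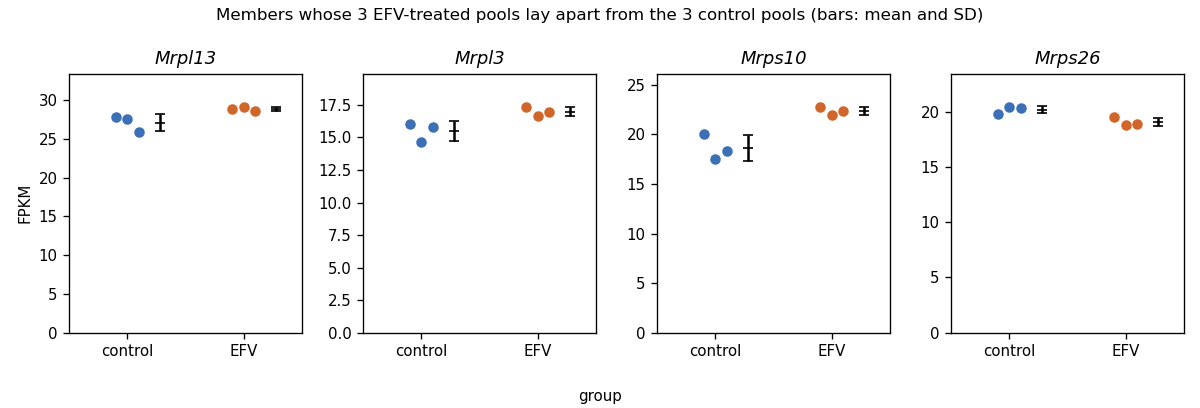
FPKM of the 4 members whose control and EFV-treated pools do not overlap, with 1 point per pool and bars for the mean and SD of each group of 3. The gap between the groups is widest for Mrps10, 20.1 against 22.0 FPKM for the nearest pools.

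The lowest log2 fold changes belonged to Mrps12, Mrpl23, Mrpl48 and Mrpl14, and none passed the threshold in the main edgeR fit. The Poisson model, with no term for differences among pools, called all 4 at that threshold. Mrps12 had 29.0, 24.6 and 28.9 FPKM in control and 23.7, 24.1 and 27.3 FPKM in EFV-treated pools, a log2 fold change of -0.16 (SE 0.09, edgeR unadjusted p = 0.118). Mrpl23, at the mouth of the exit tunnel, had 44.7, 39.8 and 45.3 FPKM against 40.1, 36.3 and 41.7 FPKM, also -0.16 on the log2 scale (SE 0.08, edgeR unadjusted p = 0.0714). In both genes 1 control pool, pool 2, lay within the range of the EFV-treated pools. With the replicate number as a block Mrpl23 passed (edgeR unadjusted p = 0.0418), and both genes passed without control pool 2 or without EFV-treated pool 3. Mrpl48, a mitochondria-specific large subunit protein, had 33.7, 33.0 and 30.5 FPKM against 29.8, 26.1 and 33.7 FPKM (log2 fold change -0.14, SE 0.09). Mrpl14, at the interface of the subunits, had 35.1, 29.9 and 30.2 FPKM against 27.6, 27.96 and 32.5 FPKM (log2 fold change -0.13, SE 0.09). EFV-treated pool 3 was the highest of its group in all 4.

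After Mrps10 the highest log2 fold changes, 0.12 each, were those of Mrpl32, Mrpl44 and Mrpl16, of the large subunit. Mrpl32, whose product is trimmed by the m-AAA protease before it joins the ribosome, had 20.5, 18.8 and 19.0 FPKM in control and 19.9, 21.8 and 22.4 FPKM in EFV-treated pools (SE 0.08). Mrpl44, which resembles ribonuclease III, had 14.7, 12.04 and 12.1 FPKM against 14.5, 13.4 and 14.7 FPKM (SE 0.09). Mrpl16 had 6.84, 5.78 and 5.80 FPKM against 6.45, 6.70 and 7.08 FPKM (SE 0.12). The groups overlapped in all 3, and none passed the threshold in the main edgeR fit. Mrpl44 passed it with the Poisson model and without control pool 1.

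Members with other central roles also overlapped between the groups. Mrpl12, of the stalk that recruits translation factors, had 27.1, 25.3 and 25.8 FPKM in control and 24.7, 22.1 and 28.6 FPKM in EFV-treated pools (log2 fold change -0.07, SE 0.09). Mrpl45, which tethers the ribosome to the inner membrane, had 15.9, 13.9 and 13.1 FPKM against 14.3, 14.8 and 14.2 FPKM, a difference whose sign changed between settings (log2 fold change -0.003, SE 0.07). The S18 family has 3 paralogs, of which Mrps18a is placed in the large subunit. Mrps18a had 35.6, 32.5 and 33.6 FPKM against 31.6, 31.1 and 37.3 FPKM. Mrps18b had 19.7, 16.3 and 18.6 FPKM against 17.96, 16.9 and 16.6 FPKM. Mrps18c had 25.8, 22.0 and 22.0 FPKM against 23.0, 18.3 and 25.3 FPKM. The log2 fold changes of the 3 were -0.04, -0.09 and -0.09, none past the threshold.

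Below 0 lay the log2 fold changes of 50 members (64.1%), against 49.5% of all genes, whose median was 0.001. Of the 51 large subunit members 31 were below 0, with a median of -0.02, and of the 26 small subunit members 19, with a median of -0.04. Members with a bacterial counterpart had 24 of 45 below 0 (median -0.01) and mitochondria-specific members 23 of 29 (median -0.03). Scaling by total counts moved all genes alike, to 41.6% below 0 and a median of 0.02, with 43 members below 0 and a counterpart median of 0.01, and the member median lay 0.03 below that of all genes under both scalings. Leaving out each pool in turn gave 40 to 55 members below 0. The lowest count, 40, came without control pool 1 or without EFV-treated pool 2 (medians -0.01 and -0.002), and the other 4 fits gave 50 to 55. The groups of members depended on these pools too. Without EFV-treated pool 2, 13 of 26 small subunit and 18 of 29 mitochondria-specific members lay below 0. Without control pool 1 these were 17 and 16, and the large subunit median was 0.002. The other 4 fits gave 18 to 21 small subunit and 21 to 24 mitochondria-specific members. Mrps36, now known as a part of the alpha-ketoglutarate dehydrogenase complex, belongs to no group and averaged 39.2 FPKM with a log2 fold change of 0.02.

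The median level of the members differed between pools of the same group. Their median log2 deviation from the mean of the 6 libraries was 0.06, -0.01 and -0.02 in the control pools and -0.02, -0.06 and 0.04 in the EFV-treated pools. Control pool 1 and EFV-treated pool 3 were the high pools, and the groups overlapped. In control pool 3 the subunits differed, at 0.06 for small subunit and -0.02 for large subunit members. Control pool 1 exceeded control pool 2 in 56 of 78 members (49.5% of all genes), by a median of 0.09 on the log2 scale. EFV-treated pool 2 exceeded EFV-treated pool 3 in 22 (49.4% of all genes). Control pool 1 exceeded control pool 3 in 55, and control pool 2 exceeded control pool 3 in 33. EFV-treated pool 1 exceeded EFV-treated pool 2 in 51 and EFV-treated pool 3 in 33. The 922 tested genes as short as the shorter members deviated by 0.07, -0.03 and 0.01 in the control and -0.05, -0.04 and 0.05 in the EFV-treated pools, with the same high pools. The 39 longer members deviated by 0.05, -0.002 and -0.02 in the control and 0.004, -0.05 and 0.03 in the EFV-treated pools, so the same pools were high among them too. Summed over the members, levels were 1710, 1598 and 1626 FPKM in control and 1613, 1571 and 1716 FPKM in EFV-treated pools, and the members took 0.172% to 0.187% of the counts of a library.

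**Figure D5:**
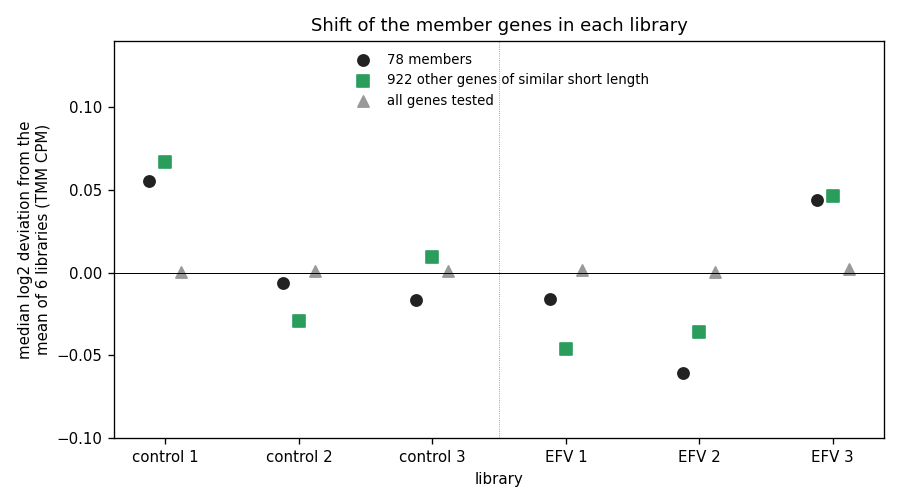
Median log2 deviation of each library from the mean of the 6, for the 78 members (circles), 922 genes of similar short length (squares) and all genes tested (triangles). The members are highest in control pool 1 (0.06) and EFV-treated pool 3 (0.04), and in both the short genes are high as well (0.07 and 0.05).

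Genes that act with the mitochondrial ribosome were read by the same test, with 1.47% of all genes past the nominal threshold higher in EFV-treated pools and 1.54% lower. Of 5 ribosomal proteins with other names 0 passed. Their log2 fold changes had a median of -0.02 and ran from -0.08 to 0.13, with 4 below 0. Aurkaip1 had 28.4, 28.3 and 30.2 FPKM in control and 27.0, 27.6 and 27.9 FPKM in EFV-treated pools (log2 fold change -0.08). It was lower without overlap, as were 2.68% of all genes, but did not pass. Gadd45gip1 likewise had 16.3, 15.9 and 16.3 FPKM against 15.2, 15.8 and 15.3 FPKM (log2 fold change -0.08). Among 26 assembly factors 1 was higher and 0 lower at the threshold, with a median of 0.04. Nsun4, a methyltransferase that modifies the small subunit RNA and takes part in joining the subunits, rose from 1.66, 1.64 and 1.60 FPKM to 1.86, 2.00 and 2.13 FPKM (log2 fold change 0.22, SE 0.07, edgeR unadjusted p = 0.0138, adjusted p = 0.999). Its EFV-treated pools all lay above its control pools, as did those of 4.99% of all genes.

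No gene passed among 16 translation factors (median -0.02), where Slirp, which stabilises mitochondrial messenger RNA, was the most abundant at 51.5 and 52.8 FPKM on average in control and EFV-treated pools. None passed among 20 genes of mitochondrial tRNA charging (median 0.01), led by Gatc, a subunit of the glutamyl-tRNA amidotransferase, at 31.1 and 29.2 FPKM, or among 12 genes of mitochondrial biogenesis and mass (median -0.01), led by Vdac1, the outer membrane channel. RNAs of the mitochondrial genome could not be read here, since 0 of the 28 symbols searched for them were among the genes listed.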

How the data were processed

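RNA of 3 control and 3 EFV-treated pools was selected for poly-A by the labels, and the study's methods describe random-primed cDNA. Sequencing was done by BGI, and strandedness is not given in the sources used here. The authors made expected counts per gene with RSEM 1.2.12 after Bowtie2 2.2.5 alignment to mm10 (HISAT2 2.0.4 is also named in the submitters' processing notes, its role not given). The deposited FPKM values come from the same program, are rounded, and list no value below 0.01, so a gene not listed in a library was taken as 0. Expected counts were rounded to whole numbers.

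The 15537 genes that reached 10 counts in 3 or more libraries were compared in R 4.3.3 by edgeR 4.0.16 (quasi-likelihood, two-sided, scaled by TMM, no term but group) with Benjamini-Hochberg adjustment over all of them. The smallest two-sided p that an exact permutation of 3 against 3 allows is 0.10, and all p-values here are from models. The steps were run on simulated data with changes larger than those of any member and no shift of whole pools. That run does not test changes as small as those seen here. Members, roles and gene lists were chosen with earlier results of these data known. Values are given for members past the nominal threshold, Mrps10, the 4 most and 4 least abundant, the 4 highest and 4 lowest fold changes at a mean of at least 5 FPKM, the S18 paralogs and Mrpl3, Mrpl12, Mrps12, Mrpl45 and Mrpl44. Mrpl13, Mrps26, Mrps34, Mrps36, Aurkaip1, Gadd45gip1, the neighbour genes and the members whose promoter stretches are printed were chosen after their values were seen. Starts came from GENCODE M21 and promoter letters from RefSeq GRCm38.p6. Alternatives were other scalings and filters, DESeq2 1.42.0, limma 3.58.1 on log2(FPKM + 0.1) and log2(FPKM + 1), a Poisson model, a replicate block and leaving out each pool. One marker gene of the rod list is not reported here.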

Additional observations from a re-analysis of the deposited data

How the results depend on the processing

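Mrps10 passed the nominal threshold in every setting tried, and the median log2 fold change of the members stayed below 0 (-0.04 to -0.002 without 1 pool). The number of members past the threshold was 1 in the main analysis (1.28%, against 3.01% of all genes). It was 2 with limma at either pseudocount (2.56%, against 3.15% and 3.18%) and 12 with the Poisson model (15.4%, against 14.8%). Without 1 pool it ran from 1 to 7. The highest were 7 without EFV-treated pool 3 (8.97%, against 3.62%), 4 without control pool 1 (5.13%, against 3.73%) and 3 without control pool 2 (3.85%, against 2.52%). The Poisson model has no term for differences among pools. It called 4 members at an adjusted p of 0.05, against 13.1% of all genes. At the nominal threshold it called 2305 genes, DESeq2 called 269 genes, and leaving out 1 pool gave 389 to 576. Scaling by total counts split the calls over all genes into 288 higher and 159 lower, against 228 and 239.

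The replicate numbers were not taken to pair the pools, since the correlations of same-numbered pools were 0.125, 0.0832 and 0.0992, although every library correlated best with its own number. With the replicate block 2 members passed (Mrpl23, Mrps10) of 514 genes, 2.56% of members against 3.31% of all genes.

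Signs turned for 7 of the named members, whose main values lay between -0.09 and 0.07, and the cause was not tested. Total counts and limma on FPKM moved the median of all genes from 0.0012 to values between 0.0139 and 0.0167. The part of this shift in the sign turns under them was not tested. The log2 fold change of Mrpl45 became 0.0122 with total counts, 0.0178 and 0.0166 with limma at pseudocounts of 0.1 and 1 and 0.00018 with the block, and ranged from -0.0631 to 0.0712 without 1 pool. Without 1 pool Mrpl42 ranged from -0.0397 to 0.0771, Mrpl1 from -0.00854 to 0.0638, Mrpl19 from -0.0327 to 0.113, Mrpl12 from -0.169 to 0.00615, Mrps18c from -0.189 to 0.0275 and Mrpl17 from -0.00236 to 0.117. Of 352 settings of the named results, 15 turned sign.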
